A study of Mus musculus with 8 samples.

Results

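Ribosome footprints of resting B cells were compared with those of resting T cells across all annotated mouse genes. The comparison used the 4 ribosome profiling libraries of a series of 8; the 4 RNA-seq libraries were not analysed here. All samples with a footprint label were taken, which gave 2 B cell libraries, here called B1 and B3 after the submitters' numbers, and 2 T cell libraries, T1 and T2. Both groups were B or T cells from the spleen of B6 mice, isolated with magnetic sorting kits, and the labels call their state resting. After isolation they spent 2 hours at 37 degrees in complete RPMI. Cells of both groups received cycloheximide, an inhibitor of translation elongation, at 100 µg/ml for 15 minutes before harvest. The lysates of both were digested with RNase A, RNase T1 and S7 nuclease, and RNA from the monosomes was read from 1 end. The labels give no age, sex or number of mice. Whether libraries of 1 cell type stem from different animals is also not given, so the p-values below measure only the spread between these libraries.

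A translating ribosome shields a short stretch of mRNA from nuclease, and counting these footprints per gene measures how many ribosomes sit on that gene's mRNA. The value therefore moves with both the amount of mRNA and the rate at which it is translated. B cells recognise antigen through membrane immunoglobulin, T cells through the T cell receptor, and each receptor signals through chains that carry tyrosine motifs phosphorylated by Src-family kinases. B cells also display peptides on MHC class II molecules, which CD4 T cells read, so the footprints of these cells cover both sides of one exchange.

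The footprint libraries were shallow. Libraries B1 and B3 held 236810 and 232568 counts, and libraries T1 and T2 held 627833 and 136433. Levels are given as CPM, counts scaled to a common library size by the TMM method, on which a single count was worth 1.6 to 7.96 CPM. Between 9450 and 12069 genes had a count in each library. Over the 4771 genes deep enough to test, Pearson's r of log2(CPM + 4) was 0.816 between the B cell libraries, 0.866 between the T cell libraries and 0.433 to 0.552 across cell types; this is a description across genes, which are not replicates. Genes of small nuclear and nucleolar RNAs, which are not translated, took 2.79% and 10.7% of the counts in the B cell libraries and 9.5% and 18.9% in the T cell libraries. The 37 mitochondrially encoded genes had no count in any library, although the list of mitochondrial ribosomal proteins, made in the cytosol, had counts in 75 to 77 of its 78 members. The 4 Y-linked genes looked at summed to 337 and 279 CPM in B cells and to 4.81 and 279 CPM in T cells, so T1 stood apart from the other 3.

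The cell types were checked against their markers. The 21 B cell markers, among them Pax5, Cd79a and Ms4a1 (the antigen CD20), summed to 72900 and 77700 CPM in the B cell libraries. In the T cell libraries they summed to 1950 and 6000 CPM, or 2.59% and 7.97% of their mean B cell level. Most of the sum in each library came from the class II presentation genes among them, Cd74, H2-Aa, H2-Ab1 and H2-Eb1. The 21 T cell markers, among them Cd3e, Lat and Tcf7, summed to 12500 and 9900 CPM in T cells and to 711 and 1130 CPM in B cells. Those B cell sums are 6.36% and 10.1% of the T cell level, and 524 and 568 CPM of them came from Cd2, an adhesion receptor found on both lineages. Natural killer markers, of which T cells share several, summed to 140 and 973 CPM in B cells and 1740 and 1780 CPM in T cells. Plasma cell markers summed to 2490 and 4670 CPM in B cells against 480 and 812 CPM in T cells. Myeloid markers ran at 651, 1380, 480 and 565 CPM in B1, B3, T1 and T2. B3 was above B1 in all 3 of these lists. The neutrophil genes Ngp, Camp and Ltf had no count in B1 or T1, stood at 137, 84.1 and 116 CPM in B3, and at 31.9, 15.9 and 15.9 CPM in T2. In bulk samples like these, fewer cells of a type and fewer footprints per cell cannot be told apart.

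**Figure D1:**
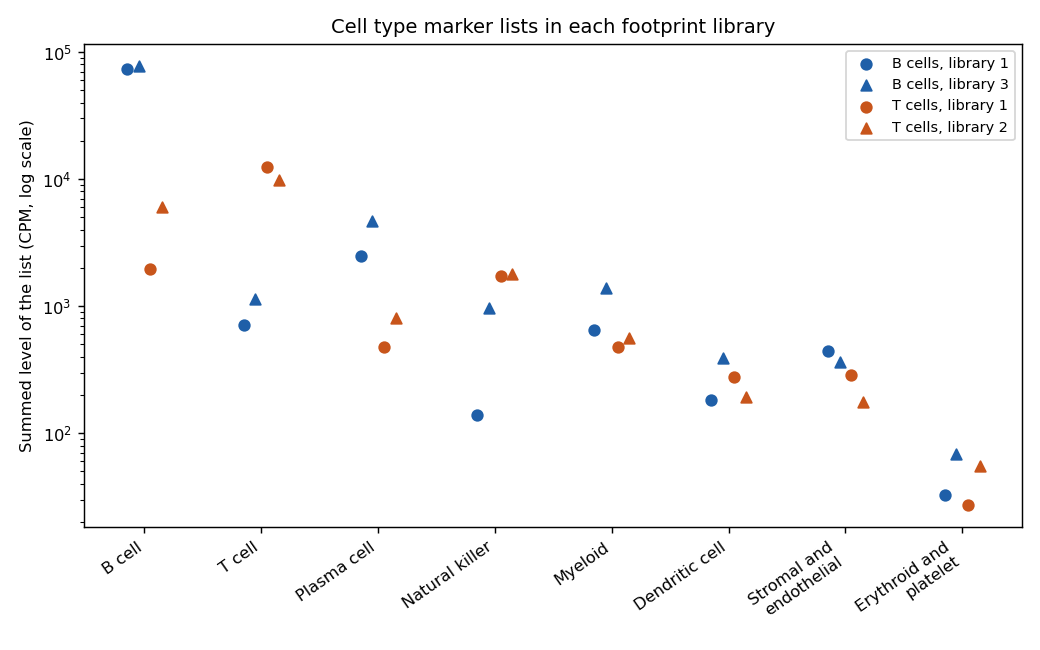
Summed level in CPM (log axis) of 8 marker lists in each of the 4 footprint libraries; each point is 1 library, circles and triangles separate the libraries of a cell type. B cell markers sit at 72900 and 77700 CPM in B cells against 1950 and 6000 in T cells, T cell markers at 12500 and 9900 against 711 and 1130, and B3 lies above B1 for plasma, natural killer and myeloid lists.

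Footprints on antigen receptors, their signalling proteins and lineage transcription factors separated the cell types widely, while genes of protein synthesis, oxidative phosphorylation and the proteasome gave 1 call or none. With edgeR's quasi-likelihood test and a Benjamini-Hochberg adjusted p below 0.05, 629 of 4771 genes were called, or 13.2%. In B cells 400 genes were higher (8.38%) and 229 were lower (4.8%); the libraries of one type did not overlap those of the other for any of the 629, as was the case for 52.1% of all tested genes. The median difference was 3.44 on the log2 scale among the genes higher in B cells and 2.74 among those lower, where genes without a count in one cell type are set at the smallest difference that 3 counts would allow. By the same measure 58.2% of the former and 43.7% of the latter differed at least 8-fold. At an unadjusted p below 0.05 there were 1132 genes. The median log2 difference of all tested genes was 0.02.

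**Figure D2:**
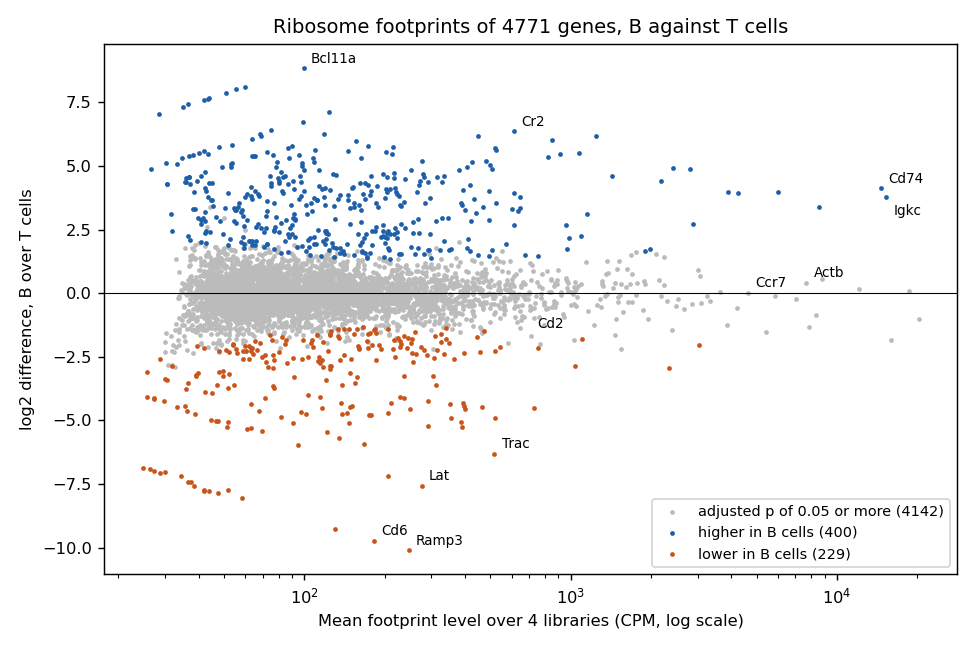
Log2 difference in footprints, B over T cells, against the mean level over the 4 libraries in CPM (log axis) for 4771 tested genes; blue points are 400 genes higher in B cells, orange points 229 lower, grey points 4142 not called. The streaks at the top and bottom left are genes with no count in one cell type, drawn at their fitted value, which is not a bound. Bcl11a, Cr2, Cd74 and Igkc lie high, Ramp3, Cd6, Lat and Trac lie low, and Actb, Ccr7 and Cd2 lie among the genes not called.

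The 15 largest differences in each direction were dominated by lymphocyte surface and regulatory genes. Bcl11a, a zinc finger factor needed for B cell development (ENSMUSG00000000861; chromosome 11, 24076564 to 24173558 in GRCm38.p6), had 271 and 126 CPM in B cells and no count in T cells, at least 49.6-fold higher. Rasgrp3, an exchange factor that loads Ras in B cells (chromosome 17, 75435870 to 75529054), had 150 and 89.4 CPM and no count in T cells, at least 29.8-fold higher. Zfp608, with 93.6 and 110 CPM against no count, was at least 25.5-fold higher. The other genes with the largest excess in B cells included receptors and their inhibitors and transcription regulators. Tnfrsf13c, the receptor for the B cell survival factor BAFF, had 173 and 321 CPM against 1.6 and 0, a log2 difference of 7.13 ± 0.79 (± is the standard error throughout, n = 2 libraries per group). Fcmr, a receptor for the Fc part of IgM, had 2970 and 1920 CPM against 22.5 and 55.7, a log2 difference of 6.20 ± 0.66. Dok3, an adaptor that dampens B cell receptor signals, had 262 and 126 CPM against 0 and 7.96, a log2 difference of 6.73 ± 0.94. The transcription regulators Lmo2 and Hhex rose by 6.41 ± 0.75 and 6.08 ± 1.03, and Chst3, a sulfotransferase of chondroitin, by 6.0 ± 0.72. Cr2, Blk, Mef2c, Ighd and Ebf1, also among the 15, are described with their groups.

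Several of the genes with the largest excess in T cells had no count at all in B cells. Ramp3, a receptor activity-modifying protein (ENSMUSG00000041046; chromosome 11, 6658506 to 6677478), had 244 and 741 CPM in T cells and no count in B cells, where it was at least 66.3-fold lower. Cd6, a scavenger-type receptor that associates with the T cell receptor (ENSMUSG00000024670; chromosome 19, 10789339 to 10830062), had 374 and 358 CPM and was at least 49.3-fold lower. Izumo1r, the folate receptor 4 of regulatory T cells, had 106 and 127 CPM, and Tnfsf8, the ligand of CD30, 64.2 and 143 CPM; both had no count in B cells, bounds of at least 15.7-fold and 14-fold lower. The remaining genes of this group included receptors of the TNF family and a kinase. Cd27, a costimulatory receptor, had 300 and 358 CPM in T cells and 0 and 10.5 in B cells, a log2 difference of -5.92 ± 0.70. Tnfrsf4 (OX40) had 212 and 263 CPM against 0 and 10.5, at -5.44 ± 0.74. Camk4, a calcium and calmodulin-dependent kinase, stood at -5.24 ± 0.96, Lrig1 at -5.42 ± 0.96, Tdrp at -5.98 ± 0.79, and Ikzf2, the Ikaros family member Helios, at -5.30 ± 0.91. Of these 30 genes 16 overlap another gene in the RefSeq annotation, against 46.8% of tested genes with coordinates, and since no source used here says whether counting took account of strand, reads of overlapping genes cannot be told apart.

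The chains of the B cell receptor and its coreceptors were higher in B cells without exception: 15 of 15 tested members rose, with a median log2 difference of 4.60 beside 0.02 for all genes and a background of 8.38% called higher. Cd79a and Cd79b, the chains that carry the receptor's signal, had 5510 and 3860 CPM and 3580 and 1880 CPM in B cells. In T cells the levels were 75.4 and 255 CPM for Cd79a and 33.7 and 223 CPM for Cd79b. The log2 differences were 4.93 ± 0.72 (adjusted p = 0.000831) and 4.61 ± 0.82 (adjusted p = 0.00264), and for both genes T2 was well above T1. Coreceptors lower the threshold of the receptor. Of these Cr2 (CD21) showed the largest gap, with 1630 and 789 CPM in B cells and 11.2 and 23.9 CPM in T cells, a log2 difference of 6.36 ± 0.66 (adjusted p = 0.000321). Cd81, a tetraspanin that T cells also carry, differed by 2.91 ± 0.42, from 524 and 421 CPM to 65.8 and 55.7 CPM. The inhibitory receptors rose as well: Cd22 by 5.49 ± 0.63, Siglecg by 5.32 ± 0.68, Fcgr2b by 4.60 ± 0.64 and Cd72 by 2.82 ± 0.46. With T1 left out the median over the 15 members was 3.53, and with T2 left out 5.31, all 15 still called.

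Downstream of the receptor 13 of 14 tested signalling genes rose in B cells, beside 8.38% of all tested genes, with a median of 4.27. The Src-family kinases Lyn and Blk start the cascade. Lyn had 417 and 284 CPM in B cells and 14.4 and 31.9 CPM in T cells, a log2 difference of 4.20 ± 0.52; Blk had 295 and 174 CPM against 3.21 and 0, at 6.27 ± 0.72. Syk, the kinase that docks on the phosphorylated chains, had 669 and 584 CPM against 28.9 and 31.9, at 4.38 ± 0.46. The kinase Btk had 225 and 152 CPM against 4.81 and 0, the adaptor Blnk 557 and 515 CPM against 11.2 and 23.9, and the phospholipase Plcg2 468 and 358 CPM against 20.9 and 39.8. Their log2 differences were 5.45 ± 0.68, 5.20 ± 0.53 and 3.97 ± 0.49, with adjusted p of 0.000421, 0.000321 and 0.000402, and in each gene both B cell libraries lay above both T cell libraries. The adaptor Bank1 rose by 5.17 ± 0.57, Themis2 by 4.30 ± 0.56, Swap70 by 4.25 ± 0.68, the proton channel Hvcn1 by 3.79 ± 0.45 and the adaptor Pik3ap1 by 2.84 ± 0.51. Prkcb, a protein kinase C that T cells also use, showed the smallest called difference, 2.18 ± 0.48 (adjusted p = 0.00882), from 281 and 463 CPM to 104 and 39.8 CPM. Without T2 its adjusted p was 0.0532, at a log2 difference of 1.78. The adaptor Dapp1 was the member that did not pass, with 178 and 105 CPM against 77 and 135 CPM and overlapping libraries. Vav3 was too low to test.

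The T cell receptor and its coreceptors gave the reverse picture: 12 of 13 tested members were lower in B cells, beside 4.8% of all genes, with a median log2 difference of -4.92. Cd3d, Cd3e and Cd3g, the chains that assemble with the receptor, had 942 and 581, 1220 and 788, and 1010 and 494 CPM in T cells. In B cells they had 9.36 and 31.5, 4.68 and 63.1, and 9.36 and 36.8 CPM. Their log2 differences were -5.24 ± 0.60, -4.92 ± 0.73 and -5.06 ± 0.65, and B3 was the higher B cell library for all 3. Cd247, the zeta chain (ENSMUSG00000005763; chromosome 1, 165779952 to 165871153), had 289 and 231 CPM in T cells and no count in B cells, at least 35-fold lower. The constant regions Trac, Trbc1 and Trbc2 stood at -6.31 ± 0.63, -4.50 ± 0.69 and -5.69 ± 0.80. The T cell libraries held both main subsets. Cd4 had 554 and 398 CPM, Cd8a 254 and 119 CPM and Cd8b1 372 and 159 CPM, against 4.68 and 36.8, 9.36 and 5.26, and 4.68 and 15.8 CPM in B cells. Cd5, an inhibitory receptor that some B cells carry, differed by -4.13 ± 0.63, from 428 and 470 CPM in T cells to 4.68 and 47.3 in B cells. Cd2 did not pass the test, at 524 and 568 CPM in B cells and 791 and 940 CPM in T cells (log2 -0.66 ± 0.40, adjusted p = 0.382). Leaving out B3 gave a median of -6.32 and leaving out B1 one of -4.37, with 12 called in each case.

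Of the proteins that carry the T cell receptor's signal, 16 of 17 were lower in B cells, beside 4.8% of all tested genes. The median was -3.29. Lat, the membrane scaffold that gathers the signalling complex, had 579 and 518 CPM in T cells and 0 and 5.26 CPM in B cells, a log2 difference of -7.56 ± 0.72 (adjusted p = 0.000321). The kinases showed smaller gaps. Lck had 709 and 446 CPM in T cells and 46.8 and 47.3 in B cells, at -3.62 ± 0.47, and Zap70 220 and 223 CPM against 23.4 and 36.8, at -2.87 ± 0.48. Fyn had 298 and 215 CPM against 51.5 and 73.6, at -2.07 ± 0.43. Among the adaptors Lcp2 (SLP-76) stood at -3.28 ± 0.48, Sh2d1a (SAP) at -4.06 ± 0.56, Skap1 at -3.51 ± 0.57 and Themis, which sets signal strength in developing T cells, at -4.73 ± 0.74. Trat1, a transmembrane adaptor, had 70.6 and 79.6 CPM in T cells and no count in B cells. Rasgrp1, the Ras exchange factor of T cells, did not pass the test: it had 181 and 127 CPM in T cells and 103 and 78.9 CPM in B cells, without overlap (log2 -0.80 ± 0.43, adjusted p = 0.297). The count of 16 leaned on T1, the deepest library. Without it 9 of 15 tested members were called, and Themis, Prkcq, Sit1, Fyn and Plcg1 were not, at log2 differences of -3.73, -2.56, -2.38, -1.82 and -1.56 and adjusted p of 0.0829, 0.149, 0.167, 0.0595 and 0.627. Without B1 and without T2, 14 members were called, with Sit1 and Grap2 lost in both.

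**Figure D3:**
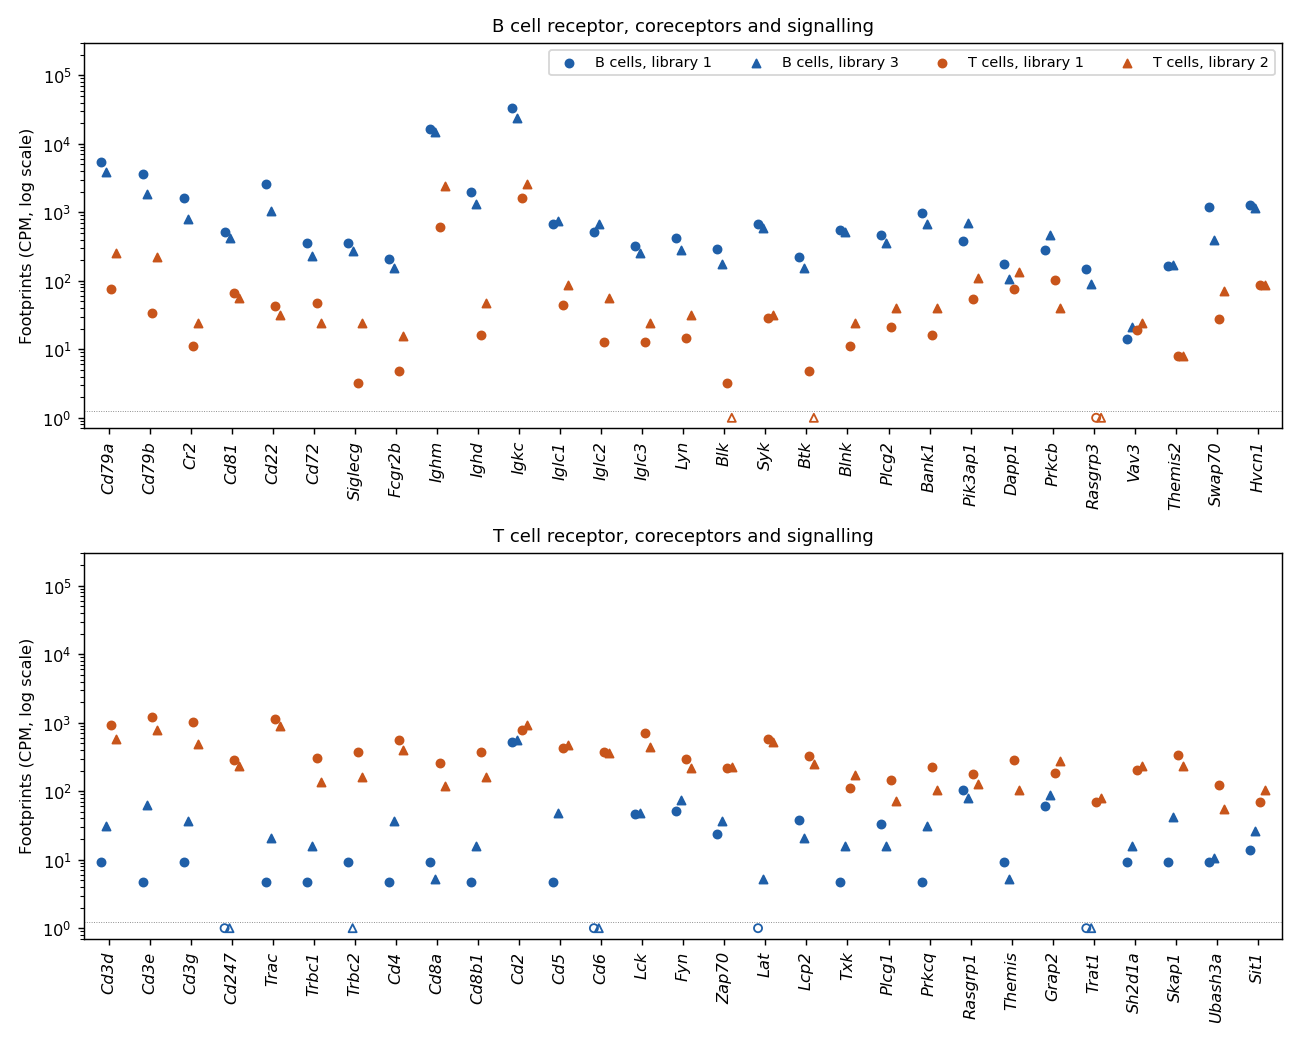
Footprint level in CPM (log axis) of the members of the receptor and signalling lists reported here, of B cells (top) and T cells (bottom) in each library; blue points are B cell libraries, orange points T cell libraries, and open symbols under the dotted line are libraries with no count. In the top panel the B cell points lie above the T cell points for all members shown but Dapp1 and Vav3, and in the bottom panel the T cell points lie above the B cell points, by the least for Cd2 and Rasgrp1.

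B and T cells use related proteins at several matching steps of the cascade. Set side by side were 17 gene pairs: such proteins, related transcription factors, and costimulatory ligands with their receptors. The pairs were chosen with earlier results of these data known, so their counts are descriptions. Over all tested genes 8.38% were called higher in B cells and 4.8% lower. In 13 pairs the B cell member was called higher in B cells and the T cell member lower. At the signal chains these were Cd79a and Cd3e and Cd79b and Cd247, and at the Src-family step Lyn and Lck and Blk and Fyn. For the Syk family, Syk stood at 4.38 ± 0.46 and Zap70 at -2.87 ± 0.48. The SLP adaptors Blnk and Lcp2 stood at 5.20 ± 0.53 and -3.28 ± 0.48, and the phospholipases Plcg2 and Plcg1 at 3.97 ± 0.49 and -2.24 ± 0.58. Plcg1, which both cell types carry, had 146 and 71.7 CPM in T cells and 32.8 and 15.8 CPM in B cells, and its adjusted p was 0.0247. The paralogous factors Bcl11a and Bcl11b split in the same way, Bcl11b at -4.12 ± 0.64. In the other 4 pairs a member did not pass. Rasgrp1 and Ets1 did not differ past the threshold while their B cell partners Rasgrp3 and Spib were called. Neither NFAT factor was called, with Nfatc1 at 257 and 384 CPM in B cells and 191 and 175 CPM in T cells. Cd86 had 117 and 258 CPM in B cells and 65.8 and 55.7 CPM in T cells, at 1.57 ± 0.49 and an adjusted p of 0.058, while its receptor Cd28 was called. Without B1 Cd86 was called, at 2.03 with an adjusted p of 0.000288.

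**Figure D4:**
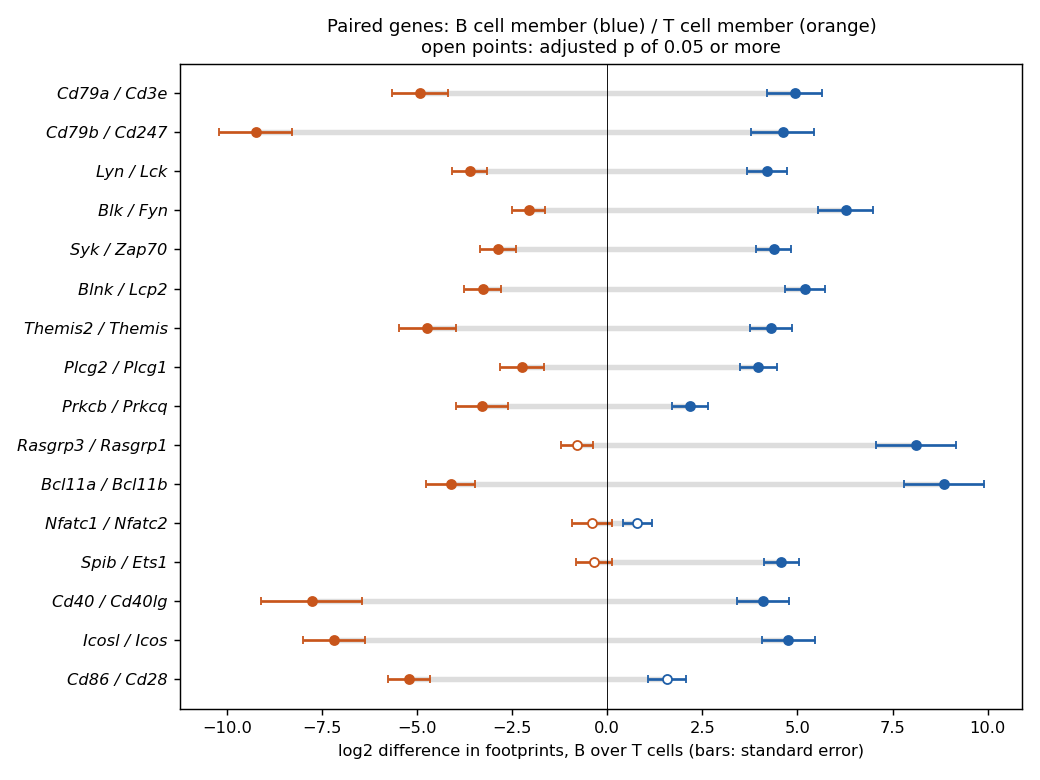
Log2 difference in footprints, B over T cells, for 16 of the 17 pairs of related or interacting genes; blue is the member tied to B cells, orange the member tied to T cells, bars are standard errors, and open points did not pass an adjusted p of 0.05. In 12 of these pairs the members lie on opposite sides of 0 and both pass; genes with no count in a cell type, such as Bcl11a, Rasgrp3, Cd247 and Cd40lg, are drawn at their fitted value.

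Immunoglobulin genes took 7.29% and 6.94% of all footprints in B cells against 0.389% and 0.855% in T cells. Of 97 tested immunoglobulin genes 94 rose in B cells and none fell, beside 8.38% called higher and 4.8% lower over all tested genes. The 3 that did not pass were kappa variable segments. Igkc, the kappa constant region (chromosome 6, 70726435 to 70726754), had 33400 and 23800 CPM in B cells and 1640 and 2570 CPM in T cells, a log2 difference of 3.77 ± 0.79 (adjusted p = 0.00664). Ighm, the heavy chain of IgM, had 16400 and 14800 CPM against 610 and 2390, at 3.39 ± 0.80. Ighd, the heavy chain of IgD that mature naive B cells carry beside IgM (chromosome 12, 113407535 to 113416324), had 2010 and 1340 CPM against 16 and 47.8, at 6.03 ± 0.65. The spread among constant regions was wide, and each of the classes made after switching had a smaller difference than Ighd: Ighg2c differed by 4.88 ± 0.69, Ighg3 by 4.50 ± 0.53, Ighg2b by 4.40 ± 0.57, Ighg1 by 3.53 ± 0.44 and Igha by 2.74 ± 0.77. Igha had 2890 and 7120 CPM in B cells against 266 and 1270 in T cells, and lost its call without T1 (1.93, adjusted p = 0.118). Of all heavy chain constant counts in a library, Ighm held 55.8% and 39.7% in B cells against 45.1% and 56.7% in T cells. Ighd held 6.82% and 3.61% in B cells against 1.19% and 1.13% in T cells. Igha held 9.81% and 19.2% in B cells against 19.7% and 30.1% in T cells, and Ighg2c 9.99% and 21.4% in B cells against 13.6% and 4.35% in T cells. The B cell libraries differed from each other here. B3 held 2.47 times the Igha and 2.71 times the Ighg2c level of B1. The plasma cell genes moved with them: Jchain, which joins polymeric IgM and IgA, was at 1200 and 2910 CPM and Mzb1, a chaperone of immunoglobulin secretion, at 220 and 531 CPM in B1 and B3. What part plasma cells have in these footprints was not tested.

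Variable and joining segments followed the constant regions. Over all tested genes 8.38% were called higher in B cells and 4.8% lower. All 33 tested heavy chain variable segments rose in B cells (median 4.32 with genes at their bound), as did 38 of 41 kappa variable segments (median 3.92), the 3 lambda variable segments (median 3.84), and 4 heavy chain and 4 kappa joining segments (medians 4.63 and 3.73). Summed over the locus, heavy chain variable segments stood at 5630 and 7100 CPM in B cells and 263 and 581 CPM in T cells. Kappa variable segments stood at 7750 and 11500 CPM against 441 and 1400 CPM. In the T cell receptor beta locus 9 of 9 tested variable segments were lower in B cells, with a median of -3.67 when the 5 without a B cell count are set at their bound. Their sum over the locus was 1300 and 1020 CPM in T cells and 9.36 and 47.3 CPM in B cells. Beside 35 annotated variable segments in the beta locus, the alpha locus has 128. There 54 of 128 variable segments had a count but none reached the depth for a test, and their sum was 315 and 239 CPM in T cells against 9.36 and 15.8 CPM in B cells. Some variable segments resemble each other closely, and reads may have been assigned to a sister segment or dropped. Single segments are therefore uncertain, while the sums of a locus are less so.

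Every tested gene of MHC class II presentation was higher in B cells, 12 of 12, beside 8.38% of all tested genes. The median log2 difference was 4.0. B cells use these molecules to show peptides from captured antigen to CD4 T cells. Cd74, the invariant chain that guides class II molecules to the endosome, had 23200 and 32500 CPM in B cells and 820 and 2360 CPM in T cells (4.14 ± 0.86, adjusted p = 0.00636). The chains of the displayed molecules were alike. H2-Aa had 10500 and 12100 CPM against 390 and 1060 (3.98 ± 0.73), H2-Ab1 6960 and 9030 CPM against 199 and 852 (3.96 ± 0.78), and H2-Eb1 6800 and 7890 CPM against 194 and 764 (3.98 ± 0.75). In all 4 genes T2 was well above T1. The peptide editors H2-DMa, H2-DMb1 and H2-DMb2 rose by 4.04 ± 0.49, 4.61 ± 0.64 and 5.20 ± 0.71, and their modulators H2-Oa and H2-Ob by 3.82 ± 0.45 and 4.03 ± 0.47. Ciita, the coactivator that turns on the class II genes (314 and 258 CPM against 4.81 and 7.96), gave the largest difference of the list, 5.61 ± 0.57 (adjusted p = 0.000321). Ctss, the protease that trims the invariant chain, gave the smallest, 2.19 ± 0.49, and without T1 its adjusted p was 0.0511 at 2.13. The summed class II level of the T cell libraries was 3.52% and 9.49% of that in B cells, beside 2.59% and 7.97% for the B cell markers. The B cell markers include 4 of these genes, Cd74, H2-Aa, H2-Ab1 and H2-Eb1, which made up most of both sums in every library. These shares are therefore largely drawn from the same counts, and their likeness was fixed in advance. The part of B cells in the class II footprints of the T cell libraries was not tested.

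Since these genes moved together, their promoters are shown from the RefSeq table of GRCm38.p6, which held an entry for 9 of the 12. Class II promoters are known for an X box, bound by the RFX complex, and a Y box, bound by NF-Y, on which CIITA is recruited. The letters GCAAC are part of the X box, and GATTGG is the reverse complement of the CCAATC core read by NF-Y. Both were searched on both strands in 32851 promoters from 250 bases before to 50 after the gene start. GATTGG was in 16.1% of all promoters and in 8 of the 9 class II promoters, and GCAAC in 35.2% and in 6 of 9. GCAAC followed by GATTGG 20 to 30 bases later on the gene's strand was in 33 promoters, or 0.1%, among them 5 of the 9: H2-Aa, H2-Eb1, H2-Eb2, H2-Oa and H2-Ob. This arrangement was chosen after the sequences had been seen. The windows below, of 71 bases each and written in the direction of the gene, show 4 of these 5 promoters and that of H2-DMb2, which has GATTGG alone, with the searched letters in capitals. A match is a description of the letters and not a measured binding site.
H2-Aa, minus strand, chr17:34287847-34287917: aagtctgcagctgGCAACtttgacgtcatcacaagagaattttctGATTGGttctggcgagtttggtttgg
H2-Eb1, plus strand, chr17:34305762-34305832: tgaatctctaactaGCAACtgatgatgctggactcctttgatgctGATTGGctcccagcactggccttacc
H2-Eb2, plus strand, chr17:34325529-34325599: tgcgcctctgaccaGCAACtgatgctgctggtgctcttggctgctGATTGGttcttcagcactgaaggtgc
H2-Ob, plus strand, chr17:34238802-34238872: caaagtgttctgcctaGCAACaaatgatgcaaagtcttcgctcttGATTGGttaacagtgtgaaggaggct
H2-DMb2, plus strand, chr17:34145113-34145183: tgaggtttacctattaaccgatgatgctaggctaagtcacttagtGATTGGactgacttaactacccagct

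Of 6 tested genes of the Toll-like receptor group 5 were higher in B cells, beside 8.38% of all tested genes, with a median of 3.84. Tlr9, the endosomal receptor for unmethylated CpG DNA, had 510 and 578 CPM in B cells and 22.5 and 79.6 CPM in T cells (3.75 ± 0.57, adjusted p = 0.00108). Tlr7, the receptor for single-stranded RNA, had 136 and 126 CPM against 17.7 and 7.96 (3.05 ± 0.54). Unc93b1, which carries both receptors to the endosome, had 1170 and 1130 CPM against 62.6 and 95.6 (3.94 ± 0.47). Cd180 and its partner Ly86, a surface pair related to the endotoxin receptor, rose by 4.85 ± 0.50 and 4.53 ± 0.53. Irf7, a factor of the interferon response, had 14 and 42.1 CPM in B cells and 96.3 and 71.7 CPM in T cells and did not pass (-1.65 ± 0.59, adjusted p = 0.0989), although it did so without B3 (-2.63, adjusted p = 0.011). The other 10 genes of this group were too low to test.

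Among 16 tested transcription factors of the B lineage 12 rose, beside 8.38% of all tested genes. The median was 3.96 when genes without a T cell count are set at their bound. Pax5 and Ebf1, which fix B cell identity, had 417 and 410 CPM and 365 and 310 CPM in B cells. In T cells they had 4.81 and 23.9 CPM and 3.21 and 15.9 CPM, which gave log2 differences of 5.48 ± 0.62 and 5.78 ± 0.63. Mef2c, a MADS-box factor activated by receptor signals, had 716 and 1050 CPM against 8.02 and 23.9 (6.19 ± 0.62). The related ETS factors Spib and Spi1 rose by 4.58 ± 0.47 and 5.41 ± 0.76, the octamer coactivator Pou2af1 by 3.54 ± 0.47, its partner Pou2f2 by 2.98 ± 0.51 and Irf8 by 2.94 ± 0.53. Zfp318, which permits IgD to be made from the shared heavy chain transcript, rose by 3.24 ± 0.64, but without B1 its adjusted p was 0.296 at 2.39. Lyl1 had 93.6 and 73.6 CPM in B cells and no count in T cells. Without B1 10 of 15 tested factors were called, with a median of 3.13. Bcl6, Relb, Nfatc1 and Bach2 did not pass. Bcl6, the factor of germinal centres, had 300 and 68.4 CPM in B cells around 156 and 167 CPM in T cells, so its libraries overlapped. Bach2 had 192 and 200 CPM against 80.2 and 87.6 (1.24 ± 0.40, adjusted p = 0.0673).

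Of 13 tested factors of the T lineage 8 were lower in B cells, beside 4.8% of all tested genes, with a median of -2.52. Tcf7 and Lef1, the partners of beta-catenin that mark naive T cells, had 695 and 685 CPM and 672 and 677 CPM in T cells, and 9.36 and 36.8 CPM and 18.7 and 47.3 CPM in B cells. Their log2 differences were -4.91 ± 0.57 and -4.36 ± 0.52. Gata3, the factor of helper T cells, had 73.8 and 71.7 CPM in T cells and Foxp3, the factor of regulatory T cells, 48.1 and 71.7 CPM, and neither had a count in B cells. Without T2 Foxp3 lost its call, with an adjusted p of 0.239. Satb1, a chromatin organiser, was present in both cell types but fell by 2.15 ± 0.53, from 947 and 1520 CPM in T cells to 154 and 400 CPM in B cells, and Tox fell by 2.52 ± 0.61. Ets1 and Runx3 did not pass, nor did Runx1, which had 337 and 174 CPM in B cells and 109 and 143 CPM in T cells. Eomes, a factor of cytotoxic cells, had no count in B1, 73.6 CPM in B3 and 73.8 and 159 CPM in T cells. The part of natural killer cells in this gap between the B cell libraries was not tested. Without B3 the median of the list was -4.78 with 9 called lower, and without B1 it was -1.67 with 8; in both cases 1 member was called higher.

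Of 15 tested costimulatory genes 4 rose and 8 fell, beside 8.38% called higher and 4.8% called lower over all tested genes. In 2 of 3 ligand and receptor pairs the partners were called on opposite cells. Cd40, through which B cells receive help, had 248 and 94.6 CPM in B cells and 8.02 and 15.9 CPM in T cells (4.09 ± 0.68), and its ligand Cd40lg had no count in B cells and 120 and 47.8 CPM in T cells. Icosl had 215 and 99.9 CPM in B cells against 4.81 and 7.96 in T cells (4.76 ± 0.69), and its receptor Icos 0 and 5.26 CPM against 558 and 263 (-7.18 ± 0.82). Cd28 differed by -5.22 ± 0.55 and Ctla4, the inhibitory receptor that competes with it, by -4.09 ± 0.56, at 9.36 and 42.1 CPM in B cells and 444 and 422 CPM in T cells. Tnfrsf18 (GITR) fell by 3.14 ± 0.46. Cd83, which stabilises class II at the surface, rose by 3.17 ± 0.51, and Cd200 by 2.66 ± 0.55. Cd200 was not called without B1 (2.36, adjusted p = 0.153) or without T1 (2.60, adjusted p = 0.088). With T1 left out the counts of this list were 3 higher and 7 lower of 14. The inhibitory receptor Btla, at 164 and 68.4 CPM against 49.7 and 47.8 CPM, did not pass.

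Of 15 tested receptors for cytokines and survival factors 2 rose and 4 fell in B cells, and 9 were not called. Over all tested genes 8.38% were called higher and 4.8% lower. The pair that rose were the receptors for BAFF and APRIL: Tnfrsf13c, given above, and Tnfrsf13b (TACI), at 150 and 116 CPM against 20.9 and 23.9 (2.60 ± 0.50). Without T1 Tnfrsf13b had an adjusted p of 0.0788 at 2.40. Il7r, the receptor chain for the survival cytokine of naive T cells, had 440 and 366 CPM in T cells and 4.68 and 36.8 CPM in B cells (-4.31 ± 0.61). Ifngr1, the ligand-binding chain for interferon gamma, had 1230 and 2420 CPM against 192 and 315 (-2.84 ± 0.53). Il6st, the signal chain of the IL-6 family, fell by 2.18 ± 0.56 and Il2rb by 2.29 ± 0.65. Il2rb had 46.8 CPM in B1 and 263 CPM in B3, and the part of natural killer cells in this gap was not tested. The shared gamma chain Il2rg had 173 and 158 CPM in B cells and 379 and 406 CPM in T cells and an adjusted p of 0.0548 (-1.24 ± 0.38). The count of 4 lower was unsteady: it was 9 of 18 tested without B3, 6 of 17 without T2, 8 with protein-coding genes alone or no filter, 7 with upper-quartile scaling, limma voom or thinning, 6 with a mean of at least 10 CPM, and 3 against a 1.5-fold threshold.

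Of 14 tested homing receptors 2 rose and 1 fell, beside a background of 13.2% called, and 11 had libraries that did not overlap between the types, against 52.1% of all tested genes. Ccr7, which brings both lymphocytes into the T cell zone, had 4530 and 4800 CPM in B cells and 3590 and 5580 CPM in T cells, with overlapping libraries. Cxcr5, which draws B cells into follicles, had 917 and 783 CPM against 65.8 and 104 (3.41 ± 0.46, adjusted p = 0.000557). Ccr6 had 225 and 168 CPM against 24.1 and 63.7 (2.45 ± 0.54), and lost its call without T1 (1.57, adjusted p = 0.243). Cxcr3, a receptor of effector and memory cells, fell by 1.82 ± 0.48, and its adjusted p was 0.0603 without T2, at -1.64. S1pr1, which lets lymphocytes leave tissue, had 903 and 878 CPM in B cells and 1420 and 1440 CPM in T cells and did not pass (-0.68 ± 0.43, adjusted p = 0.396). The integrin chains Itgal, Itgb2, Itgb7 and Itga4 did not pass either.

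Immediate-early genes, which signals and handling switch on within minutes, were uneven between the cell types and between the B cell libraries. Of 19 tested genes 9 rose and 1 fell in B cells, with a median of 1.49. Over all tested genes 8.38% were called higher and 4.8% lower, so the count of 1 lower was close to that background. Myc had 1380 and 894 CPM in B cells and 73.8 and 191 CPM in T cells (3.22 ± 0.55), and Egr3 136 and 300 CPM against 12.8 and 23.9 (3.77 ± 0.61). Fosb had 1550 and 810 CPM against 117 and 111 (3.36 ± 0.49), and Jund 1690 and 1920 CPM against 404 and 350 (2.25 ± 0.45). Jun rose by 2.89 ± 0.63, and Ier5 and Egr1 by 1.49 ± 0.41 and 1.65 ± 0.45. Nr4a1, a nuclear receptor induced by antigen receptor signals, had 1140 and 1840 CPM against 467 and 430 (1.73 ± 0.45). Fosl2 moved the other way, with 353 and 494 CPM in T cells and 14 and 152 CPM in B cells (-2.35 ± 0.69). Some of these genes differed widely between the B cell libraries: Fos was 12.7 times, Jun 3.84 times and Atf3 4.01 times as high in B1, while Fosl2 was 10.9 times and Nr4a3 15 times as high in B3. These 5 were picked for that gap after their values were seen. Counts of members higher and lower were 8 and 1 without B1, 11 and 3 without B3, and 6 and 2 without either T cell library. Egr1 was not called without B1 (adjusted p = 0.0856), T1 (0.243) or T2 (0.104), nor were Ier5 (0.424 and 0.0765) and Nr4a1 (0.139 and 0.128) without T1 or without T2.

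No gene of protein synthesis other than 1 tRNA synthetase, of oxidative phosphorylation or of the proteasome was called. Of 78 cytosolic ribosomal proteins, 28 mitochondrial ribosomal proteins, 29 initiation factors, 8 elongation factors, 69 nuclear-encoded subunits of oxidative phosphorylation, 33 proteasome subunits, 14 heat shock chaperones and 20 actin cytoskeleton genes tested, none was called in either direction. Their medians were -0.25, -0.15, -0.15, -0.11, -0.14, -0.21, 0.25 and 0.27. The respiratory chain subunit Uqcrb had the widest gap of these lists, at -1.33 ± 0.51 (adjusted p = 0.125), and Rps15a had the smallest p of the ribosomal proteins, at -1.22 ± 0.49 (adjusted p = 0.147). These counts of 0 rested in part on B3: with that library left out, 9 of 78 cytosolic ribosomal proteins were called lower in B cells with a median of -0.61, Rps15a among them (-1.97, adjusted p = 0.00361), as were Uqcrb (-1.85, adjusted p = 0.0403) and 1 other gene of oxidative phosphorylation and 1 mitochondrial ribosomal protein, and 1 actin cytoskeleton gene was called higher. With B1 left out 1 cytosolic ribosomal protein was called higher. Actb had 8730 and 8830 CPM in B cells and 8850 and 4340 CPM in T cells, so T2 was the low one. Vars, the valyl-tRNA synthetase encoded within the MHC, was the 1 called gene of 19 cytosolic synthetases, with 697 and 573 CPM in B cells and 218 and 143 CPM in T cells (1.77 ± 0.41, adjusted p = 0.0133). It lost its call without T1 (adjusted p = 0.0502) and without T2 (adjusted p = 0.158). Ldhb was the clearest gene of glycolysis, where 2 of 15 fell, close to the background of 13.2%: it had no count in B cells and 59.4 and 55.7 CPM in T cells, while its partner Ldha had 150 and 174 CPM in B cells and 233 and 199 CPM in T cells and did not pass. Without T2 the adjusted p of Ldhb was 0.0847, and with either T cell library left out no gene of the list was called. In the endoplasmic reticulum 3 of 22 tested folding genes rose, also close to that background, the disulfide isomerases Pdia4 (2.68 ± 0.48) and Pdia6 (1.71 ± 0.39) and the stress gene Herpud1 (1.83 ± 0.47), with a median of 0.43 for the list. Pdia4 had 1390 and 736 CPM in B cells and 194 and 127 CPM in T cells. Counts for this list ran from 1 without T2 to 6 without B3. Pdia6 was not called without T1 (adjusted p = 0.0968) or T2 (0.121), nor Herpud1 without T2 (1.39, adjusted p = 0.189).

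**Figure D5:**
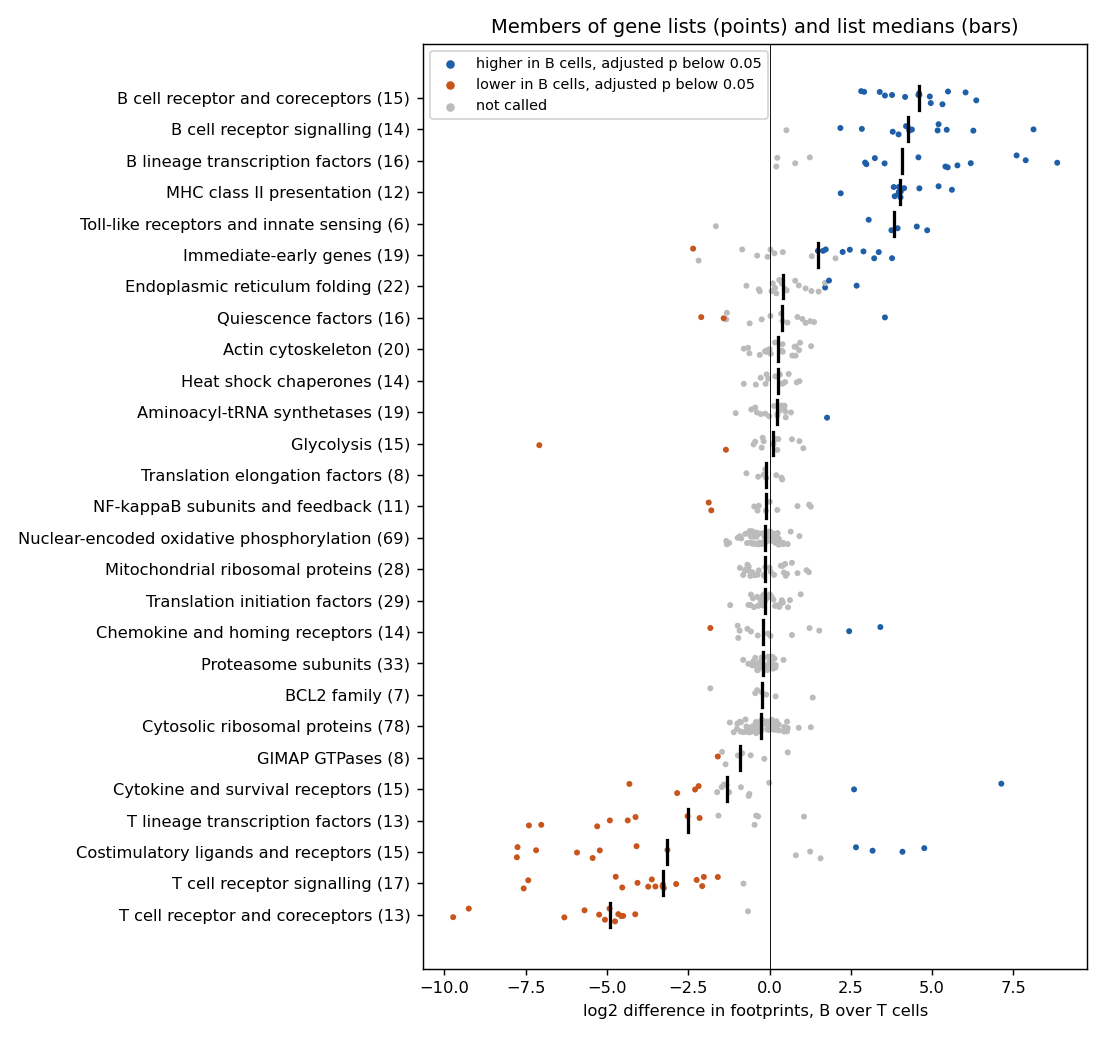
Log2 difference in footprints, B over T cells, of each tested member (points) of 27 gene lists, with the number tested in brackets and the list median as a bar; blue and orange points passed an adjusted p of 0.05. The antigen receptor, receptor signalling, lineage factor and class II lists lie 2 or more log2 units from 0 at their medians, from 4.60 to -4.92, and ribosomal protein, proteasome and oxidative phosphorylation lists lie within 0.3 of 0. Genes with no count in a cell type are drawn at their fitted value.

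The lists of survival, NF-kappaB and quiescence genes are given beside a background of 13.2% of tested genes called. None of 7 tested BCL2 family genes was called, against 1 higher and 1 lower of 9 without B3, and Mcl1 had 501 and 757 CPM in B cells and 456 and 653 CPM in T cells. Of 11 tested NF-kappaB genes 2 fell in B cells, the feedback inhibitor Tnfaip3 (A20), from 1860 and 1570 CPM in T cells to 576 and 415 CPM in B cells (-1.79 ± 0.45), and Traf1 (-1.87 ± 0.42). With B1 left out 2 other NF-kappaB genes were called higher. Tnfaip3 lost its call without B3 (-1.59, adjusted p = 0.0534) and without T1 (-1.70, adjusted p = 0.0685). Among 16 tested quiescence factors Klf4 rose by 3.55 ± 0.68, and the mRNA decay factor Zfp36l2 fell by 2.10 ± 0.48 and Tob1 by 1.41 ± 0.41. Without B3 the counts of this list were 4 higher and 2 lower, and without B1 or T1 none was higher. Klf4 had 136 and 68.4 CPM in B cells against 6.42 and 15.9 CPM in T cells, and was not called without B1 (2.91, adjusted p = 0.334) or T1 (2.59, adjusted p = 0.0897). Tob1 had an adjusted p of 0.0452, which did not hold without B3, T1 or T2 (0.0758, 0.336 and 0.0511). Of 8 GIMAP genes, GTPases of lymphocyte survival, Gimap3 was called lower (-1.59 ± 0.39), with 168 and 158 CPM in B cells and 518 and 462 CPM in T cells, and the median was -0.90. It was not called without T1, at an adjusted p of 0.0997. The count of 1 for this list was 3 with limma voom, with protein-coding genes alone and with small RNA and immunoglobulin genes removed, and 2 with DESeq2, upper-quartile scaling, thinning or B1 left out.

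Genes seen in only 1 cell type were more numerous on the T cell side, where T1 was the deepest. Taken were genes with at least 20 counts in all, a count in both libraries of a type and none in the other type. Of 13458 genes with a count in any library, 18 were found in B cells alone, 8 of them receptor segments. In T cells alone 48 were found, 10 of them receptor segments. The T cell libraries together held more counts, so 20 counts stood for a lower level there than in B cells. Absence from B cells in turn rested on fewer counts. What these numbers would be at equal depth was not tested. How often a difference could be called was looked at in simulated data. Of 4771 genes simulated at this depth and spread, 200 were given a change, 50 at each fold. The test recovered 8% of those at 2-fold, 72% at 4-fold and 96% at 8-fold. Fewer genes differed in the simulation than were called in the data, so the adjusted threshold was stricter there and recovery may be understated. The smallest called differences were 1.35 and 1.34 on the log2 scale. The share of genes called was 14.9% at a mean of 25 to 50 CPM, 9.29% at 50 to 100, 13.7% at 100 to 200 and 18.3% at 200 CPM or more. In the simulation a difference near 2-fold was rarely detected. The median standard error of the 4142 genes not called in the data was 0.48.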

How the data were processed

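Whole-number read counts per Ensembl gene, 53801 genes per library, were used as the authors deposited them. Per the submitters' processing notes, TopHat, Bowtie2, HTSeq and FastQC were used with the mouse build mm10. Not given in the sources used here are tool versions and the strand setting. Symbols were matched for 53620 genes and RefSeq classes (GRCm38.p6) for 38371. Genes were filtered with filterByExpr (minimum count 10, minimum total 15), scaled by TMM and tested with edgeR 4.0.16 in R 4.3.3 (quasi-likelihood test, no covariate, Benjamini-Hochberg over 4771 genes, threshold 0.05). The standard error is the absolute log2 difference over the square root of F. The spread between libraries of a type corresponded to a biological coefficient of variation of 29.6%, with 2 residual degrees of freedom. CPM use the TMM-scaled totals of tested genes. Lower bounds of folds set a type without counts at 3 counts over its libraries, and cover counting error only. The test was checked on simulated data. Alternatives used DESeq2 1.42.0 and limma 3.58.1, other scalings, filters and gene sets, thinning to the smallest library, and leaving out each library. Named were the 15 largest called differences in each direction (mean of at least 50 CPM, no overlap, no receptor segments or predicted genes), members of lists of up to 25 genes and of the pairs, and the smallest p-values of longer lists. A further rule on footprints per coding length was not applied because no lengths were used here, so levels were not compared between genes. The gene lists, pairs and rules were chosen with earlier results of these data known, and genes named outside the rule were chosen after their values were seen (Ngp, Camp and Ltf are list members). Single values of some list members and named genes are not reported here, although counts and medians include them.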

Additional observations from a re-analysis of the deposited data

How the results depend on the processing

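No paired analysis was possible because the B and T cell groups share the number 1 alone. Against 629 called genes (400 higher and 229 lower in B cells), leaving out each library in turn gave 415 to 898 called, 254 to 479 higher and 161 to 419 lower, with the least without T1 and the most without B3; each lone library was then assumed to vary like the other type. DESeq2 called 463, of which 147 were lower, and testing genes without a filter gave 370 lower. The cause of these shifts was not tested beyond the number of genes and libraries used. Of 140 called genes named with a log2 value and with counts in both types, none changed sign under 14 alternatives. Having been picked as called, these genes had absolute log2 differences of at least 1.34 and libraries that did not overlap. A change of sign was therefore unlikely from the start. The fold moved by over 1.5 times for 40 of these genes without B1, 39 without B3, 63 without T1, 21 without T2, 21 after thinning and 13 with limma voom, and for none under the other alternatives. DESeq2 did not call 11 of the named genes: Ctsw (adjusted p = 0.857), Plcg1, Igha, Cd200, Cxcr3, Ier5, Egr1, Herpud1, Tob1, Sit1 and Grap2, the last 10 with adjusted p from 0.0503 for Herpud1 to 0.333 for Sit1. With a threshold of 1.5-fold in the test, 11 were not called, among them Il2rb, Nr4a1 and Fosl2, with adjusted p from 0.0521 for Herpud1 to 0.112 for Tob1. With limma voom Plcg1, Cxcr3, Sit1 and Tnfrsf9 were not called, while Bach2 and Il2rg were, and thinning ended the calls of Egr1 and Tob1. Cd86 passed with protein-coding genes alone and with the wider filters.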

Other observations

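Of the 629 called genes 483 were in none of the gene lists, and 369 of these were protein-coding. The families below were chosen after the values were seen, so their counts are descriptions. They stand beside a background of 8.38% of tested genes called higher in B cells and 4.8% called lower. Some of their members (such as Ctss, Ctla4 and Ms4a1) are also in those lists. Genes of the phagocyte NADPH oxidase, which makes superoxide, were higher in B cells for 4 of 6 tested members, with a median log2 difference of 2.52. Cybb, its membrane catalytic subunit, had 744 and 857 CPM in B cells and 46.5 and 87.6 CPM in T cells (3.71 ± 0.48), and the cytosolic subunit Ncf1 had 178 and 158 CPM against 19.3 and 0 (3.47 ± 0.61). Mpeg1, a myeloid marker that B cells share, was at 328 and 342 CPM against 80.2 and 55.7 CPM, and Itgam, Mpo and Elane had no count in any library. Other myeloid markers differed between the B cell libraries: S100a9 had 4.68 CPM in B1 and 342 CPM in B3, against 25.7 and 119 CPM in T cells, and S100a8 had 4.68 and 189 CPM against 12.8 and 95.6 CPM. The part of myeloid cells in the oxidase footprints was not tested. Without B1, T1 or T2, 3 of 6 oxidase genes were called.

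Proteases and hydrolases of the lysosome, where captured antigen is cut, followed the same direction. Of 10 tested cathepsins 5 rose and 1 fell, and of 23 other lysosomal genes 10 rose and none fell. Over all tested genes 8.38% were called higher and 4.8% lower. The medians of the 2 lists were 0.99 and 1.21, and 4 and 13 of their members were not called. Ctsh had 683 and 331 CPM in B cells and 20.9 and 39.8 CPM in T cells (4.27 ± 0.56), and Napsa, an aspartic protease, had 632 and 626 CPM against 11.2 and 63.7 (4.59 ± 0.66). Ifi30, the thiol reductase that unfolds antigen, had 786 and 642 CPM against 56.2 and 79.6 (3.46 ± 0.45). Ctsw, known from cytotoxic cells, fell by 2.90 ± 0.78, with 0 and 57.8 CPM in B cells and 236 and 175 CPM in T cells. Without T1 the counts of genes that rose were 2 of 11 cathepsins and 5 of 24 other lysosomal genes. Sorting nexins, which shape endosomes, rose in 6 of 14 cases, led by Snx8 (3.72 ± 0.63) and Snx9 (3.71 ± 0.57), and in 2 of 15 without T1.

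Of 19 MS4A genes, a cluster of membrane proteins on chromosome 19, 11 had no count in any library. Only 4 were deep enough to test, of which 2 were called higher and 2 lower in B cells. Over all tested genes 8.38% were called higher and 4.8% lower. Ms4a1 had 2530 and 1650 CPM in B cells and 27.3 and 79.6 CPM in T cells (5.52 ± 0.65). Ms4a4b had 1110 and 669 CPM in T cells and 9.36 and 73.6 CPM in B cells (-4.45 ± 0.68), and Ms4a6b 446 and 239 CPM against 9.36 and 15.8 (-4.78 ± 0.58). Of 7 STAT factors, which carry cytokine signals, Stat5a and Stat5b fell. Stat5a had 205 and 374 CPM in T cells and 9.36 and 15.8 CPM in B cells (-4.44 ± 0.60), a wider gap than Stat5b (-2.04 ± 0.41), and the difference between the genes was not tested. Among other T cell receptors of costimulation and inhibition, Tigit (-4.72 ± 0.60), Cd96 (-4.0 ± 0.71) and Tnfrsf9 (-3.65 ± 0.75), the costimulatory receptor 4-1BB, were lower in B cells. Snx8 and Cd96 were not called without T1 (2.76 and -3.13, adjusted p = 0.0553 and 0.0693).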
